A study of Homo sapiens with 5 samples.

Results

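RUNX1 binding was examined at the gene that encodes RUNX1 itself, on chromosome 21, in MOLT-4 cells, an established human line from T cell acute lymphoblastic leukaemia (T-ALL). The peaks were taken by position from hg19 chr21:36100000-36550000, an interval of 450 kb around the gene, and not by their width or number. The gene itself was chosen with earlier results of these data known, so its ranks below are descriptions. It held 51 of the 51455 deposited peaks, of which 46 were RUNX1 peaks, 5 were H3K4me3 peaks and 0 were SMA4 peaks. All groups were the same line, grown in the same serum-containing medium, and the labels give no added agent or changed allele. CUT&RUN, in which a nuclease tethered by an antibody releases the bound fragments, was done for H3K4me3, for RUNX1 and for a target named SMA4 in the labels, with 1 library each. The 2 IgG samples were not analysed here, so no peak has a control value beside it. With 1 library per antibody of 1 cell line there is no replicate spread, and every comparison is a description. The lists give positions only, so width is the only measure of a peak, and how many reads lie behind it is unknown. The identity of the cells was not checked against marker genes.

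RUNX1 is a runt-domain transcription factor that binds DNA with its partner CBFB and is required for the formation of blood stem cells and for T cell development. In T-ALL cells with active TAL1 it is known as one of a small set of factors that bind the regulatory regions of each other's genes and of their own. The gene lies on the reverse strand, so transcription runs towards lower coordinates, and it has 2 promoters. The distal promoter P1 gives the isoform RUNX1C and the proximal promoter P2 gives the shorter isoforms RUNX1A and RUNX1B. The long first intron between them is known to hold enhancers active in blood cells. H3K4me3 is a histone mark of promoters. P1 was placed near 36421600 and P2 near 36261000, which puts 160.6 kb between them. Distances below are measured from these 2 points, and "downstream" means in the direction of RUNX1 transcription.

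The promoter sequence that RefSeq lists for RUNX1 is that of P2, the promoter with the broader mark, and is shown to describe the sequence there. It lies on the reverse strand of GRCh38.p14 at chr21:34888650-34888949, and the listed start is 160.6 kb inside the 5′ end of the RefSeq gene model, the same distance as from P1 to P2 in hg19. The 300 bases run from 250 before to 50 after the start. Capitals mark GATA (the core of GATA factor sites) and GGAA (the core of ETS factor sites) on either strand.

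RUNX1, P2: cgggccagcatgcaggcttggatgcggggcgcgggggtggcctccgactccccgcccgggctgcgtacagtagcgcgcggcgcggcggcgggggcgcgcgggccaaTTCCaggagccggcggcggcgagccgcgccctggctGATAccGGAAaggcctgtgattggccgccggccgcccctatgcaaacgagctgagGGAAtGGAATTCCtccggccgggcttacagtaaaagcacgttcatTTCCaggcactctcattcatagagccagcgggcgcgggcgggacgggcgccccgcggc

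The sequence was rich in CpG, with 40 CpG dinucleotides against a median of 14 over the 35116 RefSeq promoters, and 72.0% G and C against a median of 58.7%. It held 1 GATA match, 108 bases before the start, and 6 GGAA matches, 3 on each strand, between 144 and 8 bases before the start. None of these matches overlapped another. GATA was present in 49.7% and GGAA in 95.5% of all promoters of the same length, on either strand. Neither form of the RUNX core, TGTGGT or TGCGGT, was found on either strand, which 13.1% and 7.29% of all promoters held, nor was the E-box CANNTG, which 68.7% held. These matches describe the letters in this window only, and the RUNX1 peak at P2 is far wider than the window.

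Both promoters of RUNX1 lay inside H3K4me3 peaks, with more of the mark at P2 than at P1. The H3K4me3 peak that held P2 spanned 6854 bp (chr21:36255850-36262703). It was the fourth widest of the 13181 H3K4me3 peaks on chromosomes 1 to 22 and X, and the widest on chromosome 21. It began 1703 bp upstream of P2 and ran 5150 bp downstream into the gene. Upstream of it came H3K4me3 peaks of 821 bp (chr21:36263147-36263967) and 432 bp (chr21:36264700-36265131), so that the mark at P2 formed 3 peaks with 8107 bases in all. At P1 the mark was a single peak of 3339 bp (chr21:36418453-36421791), which ranked 168 in the list, within the widest 1.27%, and 288 with peaks within 1 kb merged. It reached 191 bp upstream and 3147 bp downstream of P1. Together the P2 peaks held 2.43 times as many bases as the P1 peak. Within 5 kb either side, 79.6% of bases at P2 and 33.4% at P1 were in H3K4me3 peaks. At both promoters more of the mark lay on the downstream side, with 5000 of 7957 bases at P2 and 3147 of 3339 at P1. How much transcription starts at each promoter was not measured.

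RUNX1 peaks covered both promoters of its own gene, and they differed less between P1 and P2 than the mark did. The RUNX1 peak over P2 was 5380 bp wide (chr21:36257558-36262937) and the one over P1 5334 bp (chr21:36417389-36422722). These were the widest RUNX1 peaks on chromosome 21 and ranked 23 and 25 of 36736 in the whole list. With peaks within 1 kb merged their order turned, with ranks of 38 at P2 and 6 at P1. Within 5 kb either side, RUNX1 peaks took up 80.0% of bases at P2 and 72.6% at P1. Within 10 kb this order turned too, with 41.1% at P2 and 53.6% at P1. The position of RUNX1 relative to the mark was not the same at the 2 promoters. At P1 the mark lay wholly within the RUNX1 peak, which reached 1122 bp upstream and 4211 bp downstream of P1 and had 62.6% of its own bases in the mark. At P2 it was the mark that ran further downstream, 5150 bp against 3442 bp for the RUNX1 peak, which had 95.7% of its bases in the mark. A second RUNX1 peak of 656 bp (chr21:36256761-36257416) lay inside the same H3K4me3 peak. Of the 8107 marked bases in the 3 peaks at P2, 7055 (87.0%) were also in RUNX1 peaks. For the single H3K4me3 peak that held P2 the share was 84.7%. H3K4me3 peaks at least as wide as that at P1, of which there were 168, had a median of 71.1% of their bases in RUNX1 peaks (quartiles 56.6 and 85.1%).

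**Figure D1:**
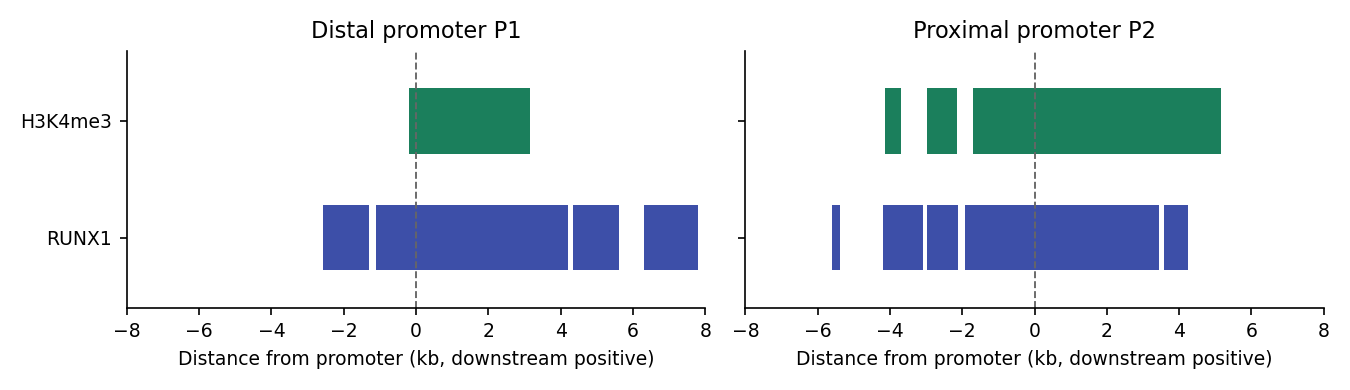
Peaks at the RUNX1 promoters P1 (left) and P2 (right), with the distance from each promoter in kb on the x axis (downstream positive) and H3K4me3 and RUNX1 peaks as bars drawn to scale. The mark of 3339 bp at P1 sits inside a RUNX1 peak of 5334 bp, whereas at P2 the main mark of 6854 bp extends past RUNX1 on the downstream side.

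Upstream of P2, RUNX1 peaks followed the 2 smaller H3K4me3 peaks. A RUNX1 peak of 858 bp (chr21:36263122-36263979) covered the H3K4me3 peak of 821 bp, and one of 1106 bp (chr21:36264100-36265205) covered that of 432 bp. A last peak of 221 bp (chr21:36266393-36266613), the minimum width of the RUNX1 list, had no mark. With the peak of 5380 bp over P2 and that of 656 bp downstream of it, there were 5 RUNX1 peaks here. Joined where gaps were at most 10 kb, they formed a region across P2 (chr21:36256761-36266613) of 9.9 kb with 8.2 kb in peaks. All 5 H3K4me3 peaks of the interval overlapped a RUNX1 peak (exact Clopper-Pearson 95% interval 47.8 to 100%), beside 88.1% of the H3K4me3 list as a whole. These intervals cover counting error alone and treat neighbouring peaks as independent, which they are not.

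Most RUNX1 peaks of the gene lay between its promoters. Between the 5 kb flanks of P2 and P1, a stretch of 150.6 kb, there were 35 of the 46 RUNX1 peaks, counted by midpoint. In this stretch 39.73 kb, or 26.4%, was in RUNX1 peaks. Bases here and below were cut at the edges of the stretch, so a peak across an edge adds bases on both sides. They were gathered towards P1. Split at the midpoint between the promoters, the side of P1 held 27 peaks and had 33.0 kb, or 43.9% of its bases, in peaks. The side of P2 held 8 peaks and had 6.7 kb, or 8.91%, in peaks. The difference lay in number and in the widest peaks and not in the usual width, since the median was 566 bp on the side of P1 and 719 bp on that of P2, while the widest peaks were 4386 and 1494 bp.

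**Figure D2:**
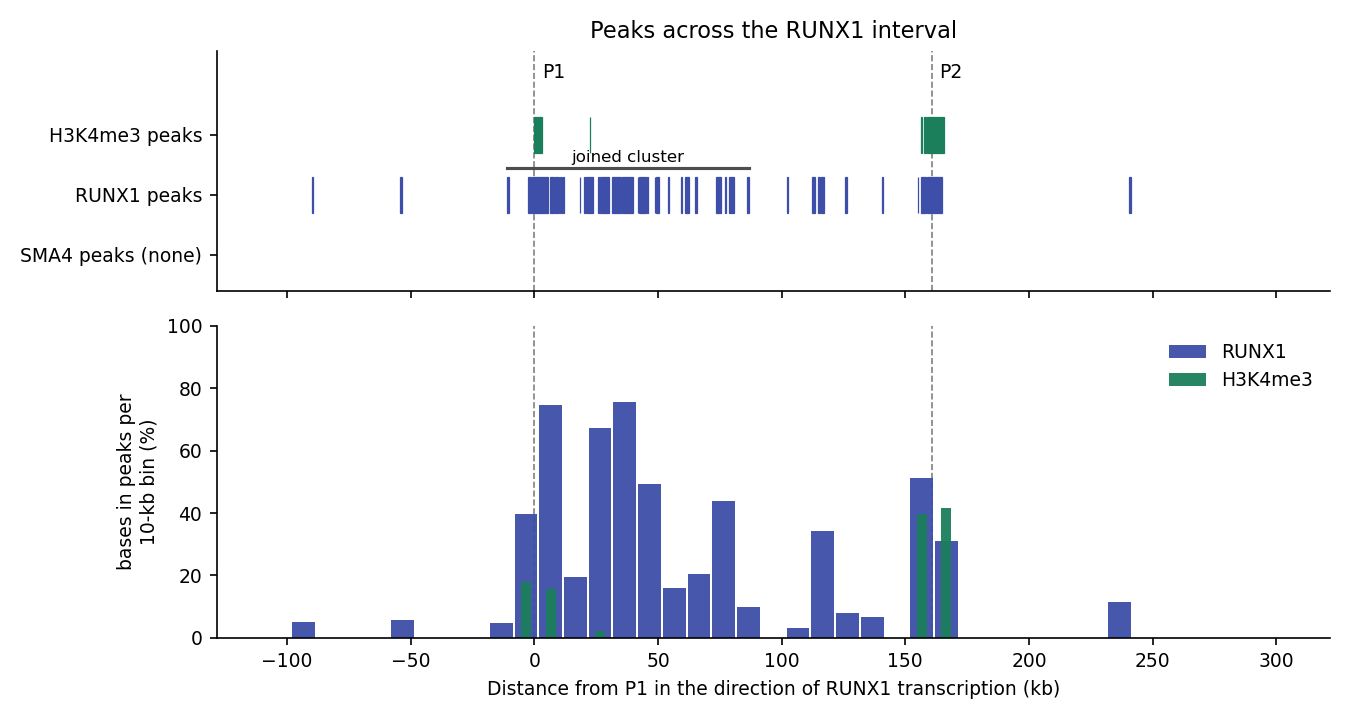
Peaks across the 450 kb interval against distance from P1 in the direction of RUNX1 transcription (kb), with dashed lines at P1 and P2. The upper panel shows each peak as a bar, with a thin outline that keeps narrow peaks visible, and the joined RUNX1 cluster as a line. The lower panel gives the percentage of each 10 kb bin in RUNX1 peaks (wide bars) and in H3K4me3 peaks (narrow bars in front). RUNX1 peaks fill over 40% of 6 of the 45 bins and are missing from 25, and H3K4me3 is found in 5 bins.

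Joining RUNX1 peaks across gaps of at most 10 kb gave 1 long cluster that began in the intron and ran across P1. It spanned 97.7 kb (chr21:36334788-36432496), from 86.8 kb downstream to 10.9 kb upstream of P1, and held 32 peaks with 42.1 kb in peaks. That was 69.6% of the RUNX1 peaks of the interval and 72.9% of their bases. Peaks within the cluster were close together, with a median gap of 703 bp and 17 of 31 gaps at most 1 kb. Its 5 widest peaks, that over P1 included, held 18937 of its 42061 bases. Its outermost peaks were 980 bp (chr21:36334788-36335767) and 472 bp (chr21:36432025-36432496) wide. With gaps of at most 5 kb the cluster split, and its largest piece (chr21:36355815-36403151) lay wholly in the intron with 19 peaks and 24492 bases. A separate piece of 8 peaks then covered P1 (chr21:36409700-36424169).

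The widest RUNX1 peaks of the intron lay in a row from 22 to 44 kb downstream of P1, and all but one of them lacked the mark. The peak nearest P1 among them, 3201 bp wide (chr21:36397688-36400888), had its midpoint 22.31 kb downstream. Then came peaks of 3273 bp (chr21:36391816-36395088) at 28.15 kb, 2743 bp (chr21:36387492-36390234) at 32.74 kb, 4386 bp (chr21:36381667-36386052) at 37.74 kb and 2559 bp (chr21:36376351-36378909) at 43.97 kb. These 5 are the peaks of at least 2 kb between the promoter flanks, and 4 of them lacked H3K4me3. In the whole RUNX1 list, 455 of the 1434 peaks of at least 2 kb (31.7%) lacked it. The peak of 4386 bp ranked 54 in the whole RUNX1 list, and of the 55 RUNX1 peaks at least that wide, 17 lacked H3K4me3. Next, further into the intron, were peaks of 1884 bp (chr21:36358890-36360773), 1922 bp (chr21:36346106-36348027) and 1996 bp (chr21:36340972-36342967), at 61.77, 74.53 and 79.63 kb from P1. None of these 3 overlapped the mark. With the peaks over P1 and P2, these are the 10 widest RUNX1 peaks of the interval.

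One narrow H3K4me3 peak lay in the intron, 22.46 kb downstream of P1. It was 212 bp wide (chr21:36399032-36399243), not far above the minimum of the list, 179 bp. It sat wholly inside the RUNX1 peak of 3201 bp, of which it took up 6.6%. Of the 1597 H3K4me3 peaks that were no wider, 53.7% overlapped RUNX1 and 43.7% lay wholly inside RUNX1 peaks, so this placing is common for peaks of that size. It was the only H3K4me3 peak between the promoter flanks. There, 1 of 35 RUNX1 peaks overlapped the mark (2.86%, exact 95% interval 0.0723 to 14.9%), beside 32.2% of the whole RUNX1 list. The stretch leaves out the promoter flanks, which held the other H3K4me3 peaks, 3 at P2 and 1 at P1. The low share therefore follows in part from the choice of stretch.

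**Figure D3:**
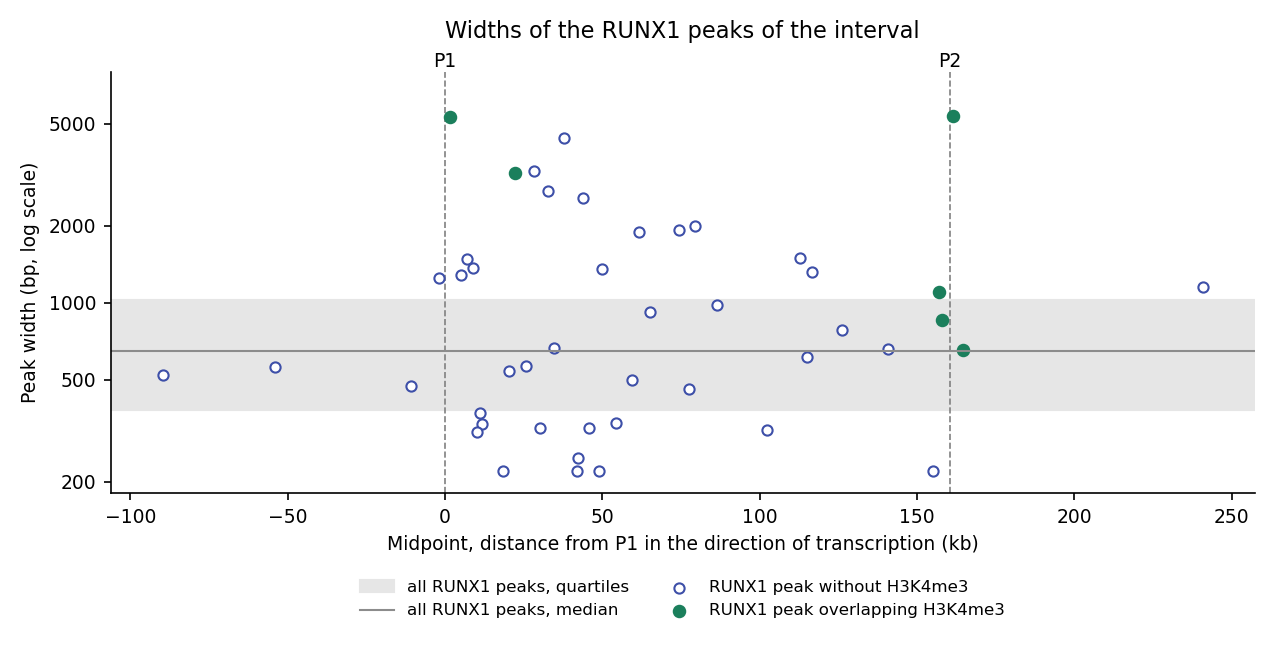
Width of each of the 46 RUNX1 peaks of the interval (bp, log scale) against the distance of its midpoint from P1 (kb), with filled points for peaks overlapping H3K4me3 and the grey band and line for the quartiles and median of all 36736 RUNX1 peaks. The row of 5 wide peaks between 22 and 44 kb, of which only that nearest P1 overlaps H3K4me3, lies far above the band, and 4 peaks sit at the minimum of 221 bp.

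RUNX1 peaks were sparse outside the 2 promoters and the cluster. In the intron between P2 and the cluster lay a single peak of 658 bp (chr21:36280526-36281183) and a group of 5 peaks over 24.2 kb (chr21:36295159-36319341), whose widest were 1494 bp (chr21:36307974-36309467) and 1315 bp (chr21:36304288-36305602). Downstream of the P2 flank, over 156.0 kb, there was 1 RUNX1 peak, 1153 bp wide (chr21:36180174-36181326), 80.25 kb from P2. The gap between it and the P2 peaks, 75.4 kb, was the longest of the interval. Upstream of the P1 flank, over 123.4 kb, there were 3 peaks of 472, 563 and 522 bp, the first being the outer end of the cluster and the last at chr21:36511049-36511570. None of the peaks named in this paragraph overlapped H3K4me3. The nearest RUNX1 peaks left outside the interval were at chr21:36079890-36080876 (987 bp) and chr21:36598798-36600193 (1396 bp).

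Set beside the whole RUNX1 list, the peaks of the gene were denser, more of them were wide, and fewer had the mark. There were 10.2 RUNX1 peaks per 100 kb in the interval and 24.3 per 100 kb from P2 to P1, beside 1.21 per 100 kb over chromosomes 1 to 22 and X. The interval is 0.936% of chromosome 21 up to its last peak, and held 8.13% of that chromosome's 566 RUNX1 peaks and 11.4% of their bases. Neighbouring peaks were at most 1 kb apart in 21 of 45 gaps (46.7%), beside 16.4% in the whole list. The median gap was 1.17 kb, beside 17.81 kb. The median width of 723.5 bp was near that of the list, 645 bp, whereas the upper quartile was 1452 against 1024 bp. Peaks of at least 1 kb made up 41.3% of the interval (19 of 46, exact 95% interval 27.0 to 56.8%), beside 26.2% of the list. H3K4me3 overlapped 6 of the 46 RUNX1 peaks (13.0%, exact 95% interval 4.94 to 26.3%), beside 32.2% of the list. Among the 19 peaks of at least 1 kb, 4 had the mark (21.1%, exact 95% interval 6.05 to 45.6%), beside 62.6% of the 9624 peaks of that width in the list. When peaks within 1 kb were merged, the 46 RUNX1 peaks became 25 and the 5 H3K4me3 peaks became 3, so the counts depend on where one peak ends and the next begins. None of these differences from the list was tested.

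Against other parts of the genome, the gene stood near the top for RUNX1 and high, though less so, for the mark. Among 6771 windows of 450 kb laid end to end, 1 had more bases in RUNX1 peaks. That window, on chromosome 4 (chr4:109000000-109449999), held 45 RUNX1 peaks with 60.6 kb in peaks, and the interval 46 peaks with 57.7 kb. Windows with any RUNX1 peak had medians of 4317 bases and 6 peaks. By number of peaks, 7 windows held more. With the windows of 450 kb shifted, 2 held more RUNX1 bases than the interval and 9 held more peaks. Of 18900 windows as long as the distance from P2 to P1, none of the others had as many RUNX1 bases as the 48513 between these promoters, or as many RUNX1 peaks. These windows were laid so that P2 to P1 is 1 of them, and shifted windows of this length were not run. For H3K4me3, 162 windows of 450 kb held more bases than the 11658 of the interval, and 700 held more than its 5 peaks. Thus 97.59% of windows were lower by bases and 85.85% by number of peaks. Windows with any H3K4me3 peak had medians of 2861 bases and 3 peaks.

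**Figure D4:**
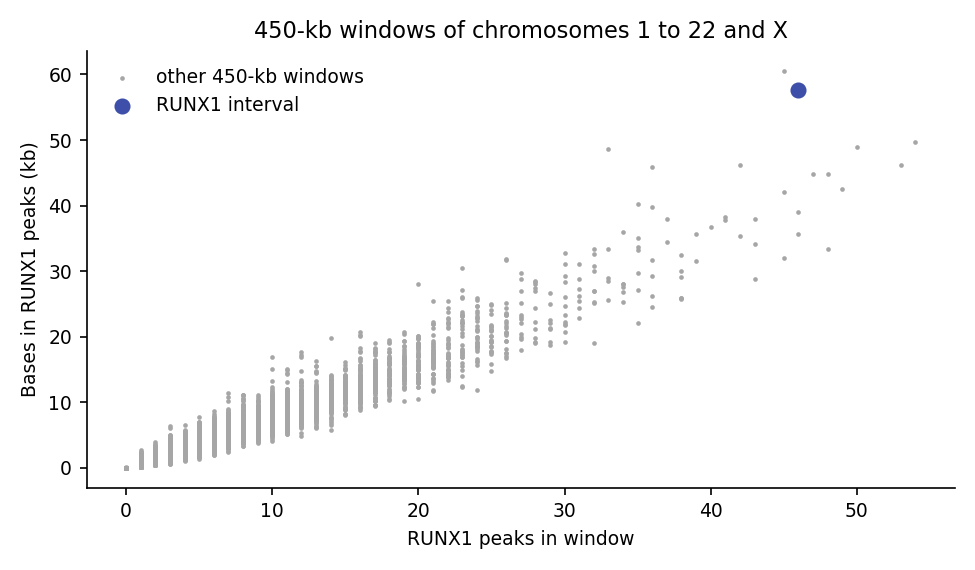
Number of RUNX1 peaks (x axis) and bases in RUNX1 peaks in kb (y axis) in each window of 450 kb on chromosomes 1 to 22 and X, with the RUNX1 interval as the large point. The interval, at 46 peaks and 57.7 kb, lies above the other windows with a like number of peaks except the one at 60.6 kb.

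The cluster at P1 and in the intron also had the most bases in RUNX1 peaks and the most peaks of the 21979 joined RUNX1 regions. It was followed by regions on chromosome 14 (chr14:98628903-98678696, 18 peaks, 29.2 kb), chromosome 17 (chr17:78676918-78765828, 30 peaks, 28.9 kb, and chr17:55508565-55584908, 31 peaks, 27.6 kb) and chromosome 1 (chr1:230238937-230325663, 30 peaks, 27.4 kb). There were 2 H3K4me3 peaks in the RUNX1 cluster and 1, 6, 0 and 0 in the other regions, in this order. The regions ranked 6 to 10 by bases held more, with 4, 8, 8, 5 and 7 H3K4me3 peaks. The place of the RUNX1 cluster as the region with the most bases was the same with gaps of at most 5 kb and of at most 20 kb. By number of peaks it ranked 4 with gaps of at most 5 kb, 1 with 20 kb and 2 with the default joining gap of the ROSE method. The list has no scores, so the strength of binding in these regions was not measured. RUNX1 peaks at other genes of its circuit were not analysed here.

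No SMA4 peak lay in the interval. For the 46 RUNX1 peaks a count of 0 allows a share of up to 6.52% by the limit of 3 counts, or 7.71% by the exact Clopper-Pearson 95% interval. In the whole list 2.56% of RUNX1 peaks overlapped SMA4, so a share like that of the list was not detectable here. Most windows of 450 kb, 5780 of 6771 (85.4%), also held none. Among the 10 windows with at least 46 RUNX1 peaks, the interval included, 6 held none and 1 held 7. The nearest SMA4 peak on the upstream side was 425.5 kb from P1 (chr21:36847095-36847506) and overlapped neither other list. On the downstream side the nearest was 1246.4 kb from P2 (chr21:35014307-35014577) and overlapped 1 RUNX1 peak and 1 H3K4me3 peak. The SMA4 list came from another batch folder and another pipeline than the other lists, which cannot be told apart from the antibody.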

How the data were processed

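CUT&RUN was done on MOLT-4 cells, with 1 library each for H3K4me3, RUNX1 and SMA4. The authors deposited 1 list of peak starts and ends in bp per library, in hg19, without scores, p-values, summits or counts. MACS2 called the peaks of H3K4me3 and RUNX1, and cutruntools those of SMA4 at a q threshold of 0.01, per the file headers. The submitters' processing notes also name SEACR. For the aligner, the control and the threshold of the MACS2 lists, the sources used here give nothing.

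Only chromosomes 1 to 22 and X entered, and positions are 1-based. The interval and both promoter positions were taken from the description of the gene, since an hg19 annotation was not used here. A peak belonged to the interval when it overlapped it by 1 bp, and to a segment by its midpoint. Windows and joined regions were computed in Python 3.11.15 with pandas 2.3.3 and numpy 2.4.6, and exact Clopper-Pearson intervals with scipy 1.17.1. Windows were laid so that the interval is 1 of them. They reach the highest peak end of each chromosome, hold less sequence at its first and last window, and include unmappable sequence. The functions were tested on simulated peaks. No test was run, because each antibody had 1 library. The members and lists were chosen with earlier results of these data known. The peaks named were all H3K4me3 and SMA4 peaks, the RUNX1 peaks at P1 and P2, the 10 widest, those at the ends of joined clusters and the 5 largest joined regions. Alternatives were midpoint or 50% overlap, peaks within 1 kb, removal of peaks at the minimum width, merging within 1 kb, promoter flanks of 2 and 10 kb, joining gaps of 5, 12.5 (the ROSE default) and 20 kb, and shifted windows. Those added after the data were seen were removal of minimum-width peaks for the overlap shares, merging within 1 kb for the width ranks and the rank of the cluster by number of peaks.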

Additional observations from a re-analysis of the deposited data

How the results depend on the processing

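Of 57 alternative values, 42 stayed within 1.5 times the value given or within its interval, and both overlap shares were among these. Some of the 42 could hardly move. The SMA4 count of 0 was one, and the window ranks were scored as the percentage of windows lower, 99.97 for RUNX1 and 97.59 for H3K4me3. Beneath these, the windows above the interval went from 1 to 2 for RUNX1 bases with shifted windows. By number of peaks they were 7 for RUNX1, and 700 against 162 by bases for H3K4me3. The 15 values that moved follow. Merging peaks within 1 kb left 25 RUNX1 and 3 H3K4me3 peaks in the interval, and moved the width rank of the RUNX1 peak from 25 to 6 at P1 and from 23 to 38 at P2, and that of the H3K4me3 peak at P1 from 168 to 288. Flanks of 2 kb, which are shorter by construction, gave 2192 (P1) and 3704 (P2) H3K4me3 bases and 3808 (P1) and 3938 (P2) RUNX1 bases. A joining gap of 5 kb gave a largest cluster of 19 peaks with 24492 bases and 1 H3K4me3 peak, and a gap of 20 kb joined P2 too, with 5 H3K4me3 peaks. Under each joining gap tried (5, 10, 12.5 and 20 kb) no other joined region had more bases in RUNX1 peaks, but by number of peaks the cluster ranked 4 at 5 kb and 2 at 12.5 kb, against 1 at 10 and 20 kb. Leaving out a replicate was not possible with 1 library per antibody, and peak counts over other genes were not run without an hg19 annotation. Read depth is unknown, so a missing peak does not show a lack of binding.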

Other observations

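The stretches of 450 kb on either side of the interval were poorer in RUNX1 peaks than the gene itself. The stretch downstream of RUNX1 held 10 RUNX1 peaks with 10.6 kb in peaks and 3 H3K4me3 peaks. Its widest RUNX1 peak, 3286 bp (chr21:35989595-35992880), had no mark and lay beside an H3K4me3 peak of 2012 bp (chr21:35985980-35987991) that overlapped another RUNX1 peak of 2003 bp. The stretch upstream of RUNX1 held 5 RUNX1 peaks with 4.2 kb in peaks and 0 H3K4me3 peaks. It also held 3 SMA4 peaks of 412, 414 and 174 bp, none of which overlapped a RUNX1 or H3K4me3 peak. RefSeq lists CLIC6, LINC00160 and LINC01426 as neighbours of RUNX1 in GRCh38, and which of them lie in the stretches described here was not determined.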
